A study of Macaca mulatta with 7 samples.

Results

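The regions described here are the outer exons of genes in rhesus macaque (Macaca mulatta) sperm RNA, the first exon and the last exon in the direction of transcription. They were taken from every gene listed with 3 or more distinct exons: on the plus strand the first exon is the one with the lowest start, and on the minus strand the one with the highest end. This gave 15917 genes and 31834 end exons, out of 190578 distinct exons in all, and 155143 interior exons of the same genes served for comparison. Between 7557 and 11985 of these genes had the 20 or more sense counts required in a library, fewest in Maltreated 2 and most in Maltreated 1. Sense counts are counts of reads on the gene's own strand. A gene's total sums all its listed exon entries, repeats included, so a read can be counted more than once.

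A first exon begins at the capped 5′ end of a transcript and usually holds the 5′ untranslated region and often the start codon. A last exon usually holds the stop codon, the 3′ untranslated region and the polyadenylation signal. Mature sperm are transcriptionally silent and carry RNA left over from spermatogenesis, much of it in fragments, so the ends of a transcript need not be present in equal amounts.

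Total RNA was extracted with TRIzol from sperm cells passed over a PureSperm 40/80 density gradient, in 4 libraries labelled Control and 3 labelled Maltreated, from a series on the legacy of early life stress. The labels give ages of 5.67 to 5.92 years, a different one for each library, and say nothing more of the maltreatment or of what the Control animals received. They do not state that each library is a separate animal, so p-values measure the spread between these libraries. Sense counts came to between 5316383 in Control 4 and 9847743 in Control 1 among the Control libraries. The Maltreated libraries had 30715268, 6160996 and 10690315 in the order of their numbers.

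PRM2, a protamine gene, matched the sperm label at 29230 to 72130 CPM (sense counts scaled to a common library total) in the 7 libraries. Among testis somatic markers INSL3, which marks Leydig cells, was at 0 in all, but INHA reached 9.66 CPM in Control 3. STAR reached 1.27 CPM in Control 2 and SOX9 1.37 CPM in Maltreated 1. The listed testis somatic genes summed to 28.4 to 127.3 CPM per library. Those of epithelium and accessory glands summed to 8.76 to 300.1 CPM, highest in Control 2. The listed leukocyte genes summed to 1269 CPM in Maltreated 3 and 810.5 in Control 4 against 23.1 to 92.8 in the other 5 libraries, and their part in the results below was not tested. The main counts below are also given without these 2 libraries. In bulk RNA, fewer cells of a type and less RNA per cell cannot be told apart.

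End exons held a small share of the sense counts, 2.87 to 3.77% on first exons and 1.96 to 3.30% on last exons. The totals count repeated exon entries each time they are listed and the end exons once, so these shares are understated. The 2 ends differed greatly in size. First exons had a median length of 180 bases (quartiles 109 and 309) and last exons one of 1042 bases (quartiles 480 and 2094). In 14587 genes, 91.6% of them, the last exon was the longer of the pair, and in 1701 genes the lengths lay within 1.5-fold. Values per kb divide by these lengths, so they are given below beside plain counts and beside genes with ends of like length.

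Per kilobase, the last exon carried fewer reads than the first in every library. The median over genes of the log2 ratio of last to first exon sense counts per kb, with 0.5 counts added to each, was -2.15, -2.07, -2.14 and -1.96 in Control 1 to 4. In Maltreated 1 to 3 it was -1.75, -2.24 and -2.29. All 7 values were below 0, and those of the 2 groups overlapped. The mean over libraries was -2.08 ± 0.18 (SD, n = 7; two-sided exact sign-flip permutation test, p = 0.0156, the smallest that 7 libraries can give, and 0.0195 adjusted over 5 measures). Without Control 4 and Maltreated 3 it was -2.07, below 0 in 5 of 5 libraries (exact permutation p = 0.0625, the smallest that 5 libraries can give). With a minimum of 10 or 100 sense counts per gene in place of 20 the mean was -2.06 or -2.21. More than a 2-fold excess on the first exon was found in 61.9 to 67.6% of genes per library, and more than a 2-fold excess on the last exon in 12.2 to 19.2%.

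Most of this difference went with exon length. In genes whose end exons were within 1.5-fold in length, the median log2 ratio was -0.17, -0.09, -0.08 and -0.21 in Control 1 to 4, against -0.26, -0.20 and -0.51 in Maltreated 1 to 3. It was thus still below 0 in 7 of 7 libraries (mean -0.22, exact sign-flip permutation p = 0.0156), but far nearer to 0 than over all genes. In the same length-matched genes with 20 or more counts on the 2 ends together, the mean was -0.65 (exact p = 0.0312). The libraries were not uniform there, with -0.79, -0.27, 0.05 and -1.66 in Control 1 to 4. Maltreated 1 to 3 stood at -0.32, -0.55 and -1.03. Counts not divided by length gave a median of 0 in 6 of the 7 libraries and 0.485 in Maltreated 1.

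**Figure D1:**
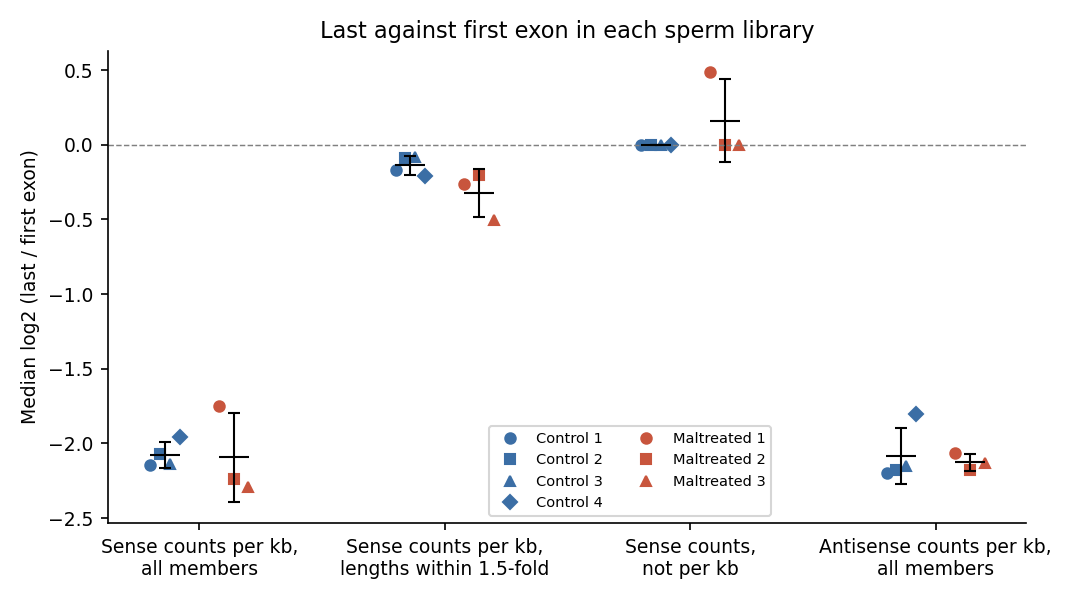
Median log2 ratio of last to first exon counts in each of the 7 libraries, as sense counts per kb over all genes, over genes with end exons within 1.5-fold in length, as sense counts not divided by length, and as antisense counts per kb. Points are libraries, bars are group means with SD (n = 4 and n = 3); the per-kb values lie between -1.75 and -2.29, and the length-matched ones between -0.08 and -0.51.

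Genes were then split by how much longer the last exon was than the first. Where it was shorter, the per-kb log2 ratio averaged 0.47 over libraries; at 1 to 2 times the length it was -0.57, at 2 to 4 times -1.45, at 4 to 8 times -2.32, at 8 to 16 times -3.11 and at 16 times or more -4.08. Over the same 6 classes the ratio of plain counts went from -0.14 to 0.43. Among genes with 20 or more end counts the per-kb ratio averaged -0.11 in the first class, -2.41 at 8 to 16 times and -3.50 at 16 times or more. The fall was not found there in Control 4, which stood at 0.12 and -0.25 in the last 2 classes. Number of exons and gene span made smaller differences: the per-kb ratio was -1.70 in genes of 3 to 5 exons and -2.37 in genes of 21 or more, and -1.30 in genes under 10 kb and -2.61 in genes of 100 kb or more. A part of every median came from genes with no read on either end, 3.74 to 35.8% of genes per library, whose ratio is set by length and the added 0.5 counts. Without them the mean over libraries was -1.85 (exact permutation p = 0.0156).

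**Figure D2:**
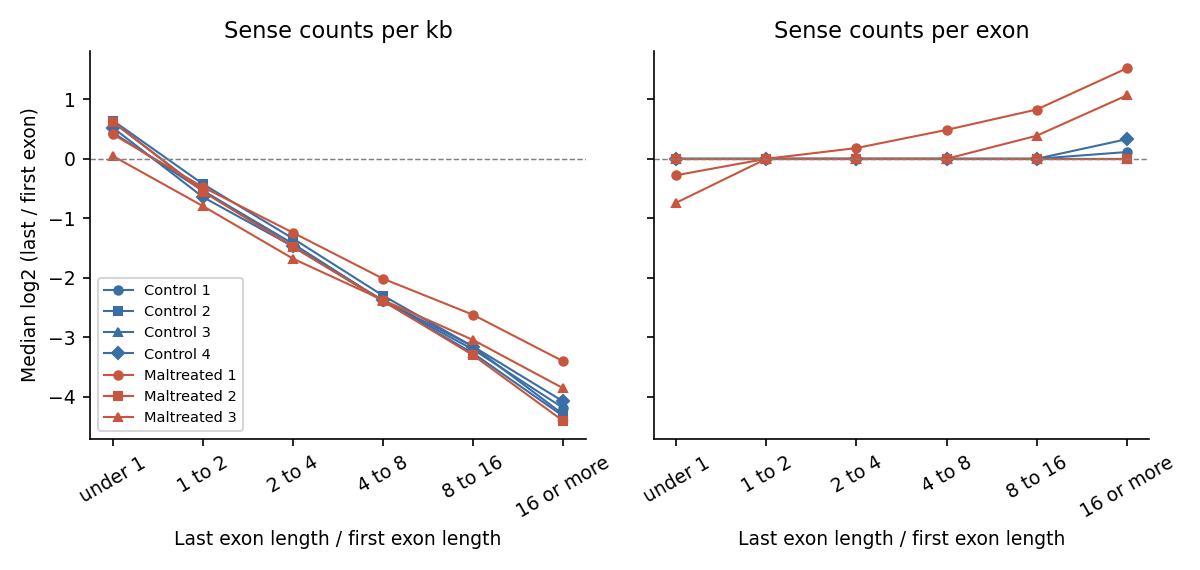
Median log2 ratio of last to first exon by the ratio of their lengths, for sense counts per kb (left) and sense counts per exon (right), 1 line for each of the 7 libraries. The per-kb ratio falls from a mean of 0.47 to -4.08 across the 6 classes, while the count ratio stays between -0.74 and 1.52 in every library.

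Both ends had fewer counts per base than the exons between them. Whether interior counts include alignments that only span an exon is not known and was not tested. The first exon against the pooled interior exons of its gene had a median log2 ratio of -2.75 ± 0.66 (SD, n = 7), from -3.54 in Maltreated 2 to -1.66 in Maltreated 3. The last exon against the interior stood at -4.87 ± 0.72 (SD, n = 7), from -5.79 in Maltreated 2 to -3.91 in Maltreated 3. The size of these values depended on the added counts: with 1 or 0.1 in place of 0.5 the first-exon value was -2.21 or -3.895 and the last-exon value -4.43 or -5.68. Each was below 0 in 7 of 7 libraries (exact sign-flip permutation p = 0.0156, adjusted p = 0.0195). These p-values cannot decide whether the ends are lower than the interior. Genes were admitted on the sense counts of all their exons, and end exons held a small share of those. The choice of genes thus favoured the interior. Genes with no read on either end, 3.74 to 35.8% per library, were kept, and their end values came from the added counts alone. Among first exons within 1.5-fold of their gene's mean interior exon length the mean was -2.53, and among such last exons -2.54, so at matched length the 2 ends lay about equally far below the interior. These are different sets of genes, and the difference between them was not tested.

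The course along the gene was followed on exons of similar size, 80 to 200 bases, in genes with 8 or more exons. Each exon's counts per base were divided by those of its whole gene, and interior exons were placed in 5 bins from 5′ to 3′. First exons averaged 1.04 ± 0.16 (SD over 7 libraries), the first interior bin 2.61 ± 0.16, and the next bins 2.19, 1.90, 1.74 and 1.44. Last exons of this size averaged 0.64 ± 0.07. The whole-gene value in the denominator includes exons of all lengths, so bins of short exons can all lie above 1. The fall from the first to the fifth interior bin was found in each of the 7 libraries, and in each the first exon lay below every interior bin and above the last exon. Between 240 and 355 last exons per library were this short, against 2407 to 3390 first exons, so the last point describes an unusual minority of genes.

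**Figure D3:**
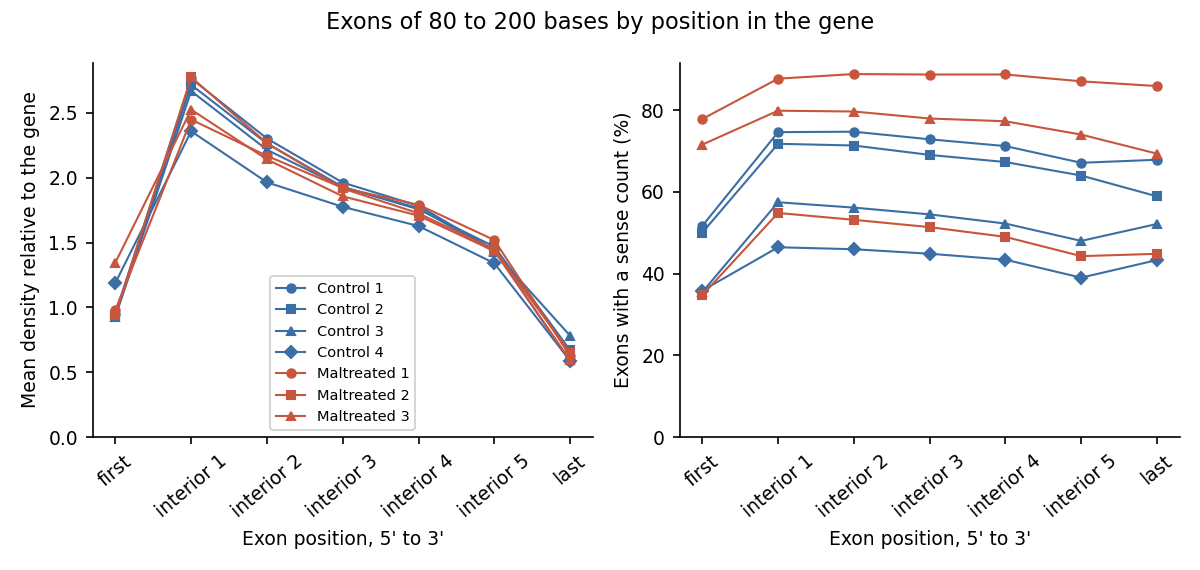
Mean counts per base relative to the whole gene (left) and percent of exons with a sense count (right) for exons of 80 to 200 bases, at the first exon, in 5 interior bins from 5′ to 3′, and at the last exon, 1 line per library. Relative density peaks in the first interior bin (2.36 to 2.78) and falls to 1.34 to 1.52 in the fifth, and the last exon lies at 0.585 to 0.782.

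Detection favoured the last exon. A sense count was present on 40.5 to 81.5% of first exons and on 50.4 to 91.1% of last exons of the genes that passed the minimum, and the last exon was ahead in 7 of 7 libraries. Between 1713 and 2072 genes per library had counts on the last exon alone, against 625 to 1076 with counts on the first exon alone. Within length-matched genes this order was not uniform: first exons were detected in 48.0 to 89.2% and last exons in 49.3 to 88.0%, and Control 4, Maltreated 1 and Maltreated 3 had the first exon ahead.

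The covered fraction, the share of an exon's bases that the deposited files list as covered, was often tied between the ends. Its median difference (last minus first) was 0 in each of the 7 libraries (exact permutation p = 1.0, the only value that medians of 0 can give). The 2 ends had the same fraction in 31.5 to 48.7% of genes. These ties include the genes with no read on either end, 3.74 to 35.8% per library. On average the first exon was the more fully covered, with a mean difference of -0.065 over libraries that was below 0 in 7 of 7 (exact permutation p = 0.0156). In length-matched genes the mean fractions were closer, 0.465 on first and 0.452 on last exons, and the last exon was ahead in Control 2, Control 3 and Control 4. Over all genes the difference ran from -0.039 to -0.063 in 6 libraries and was -0.150 in Maltreated 3, where the first exon had the higher fraction in 43.3% of genes and the last exon in 25.2%. First exons were covered in full in 20.4 to 57.8% of genes and last exons in 17.9 to 51.4%. Among exons of 500 bases or more with a single count, 28.0 to 50.8% of first exons and 26.4 to 38.8% of last exons were listed as covered in full, so the fraction is not a measure of read depth.

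Reads on the opposite strand showed a per-kb imbalance of similar size over genes of all exon lengths. It was not computed for length-matched genes or for counts not divided by length. In the 1900 to 6380 genes per library with 20 or more antisense counts, the median log2 ratio was -2.20, -2.18, -2.15 and -1.80 in Control 1 to 4, against -2.06, -2.18 and -2.13 in Maltreated 1 to 3. Its mean of -2.10 ± 0.14 (SD, n = 7) differed from the sense value by -0.017 (two-sided exact sign-flip permutation p = 0.797), with the antisense value higher in 3 libraries. The antisense and sense medians are taken over different sets of genes.

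Gene by gene, counts on the 2 ends were compared in 9013 genes that had 20 or more sense counts in at least 3 libraries and 15 or more counts on the ends in all. With edgeR's quasi-likelihood test, the library as a block, exon length as an offset and Benjamini-Hochberg adjustment, the first exon was denser in 1319 genes (14.6%) and the last exon in 178 genes (1.97%). The direction was the same in all 7 libraries in 1281 and 150 of them. These counts depended on single libraries. Without Maltreated 1 they were 551 and 50, without Maltreated 3 589 and 57, without Control 1 852 and 90, without Control 2 885 and 97, without Control 3 1075 and 111, and without Maltreated 2 1076 and 110. Without Control 4 and Maltreated 3 together they were 742 and 67. In the 897 tested genes with length-matched ends, 50 were denser on the first and 28 on the last exon, a far more even split than over all genes, where the first exon took 88.1% of the calls.

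Among called genes with the same direction in 7 libraries and 20 or more counts on each end, AK8 had the largest ratio in favour of the last exon. This gene, an adenylate kinase of cilia and flagella on the minus strand of chromosome 9, had a first exon of 630 bases (105501253 to 105501882, in the coordinates of the deposited files, which name no genome build) and a last exon of 179 bases (105437768 to 105437946). Its first exon had 1, 5, 0 and 0 counts in Control 1 to 4, against 14, 0 and 0 in Maltreated 1 to 3. Its last exon had 306, 727, 700 and 165 counts in Control and 1258, 428 and 750 in Maltreated libraries. The last exon was thus high and the first at or near 0 in every library, and the log2 ratio per kb was 10.50 ± 1.10 (SE; edgeR adjusted p = 0.00115). Along its 10 exons the summed counts were 20 to 177 in exons 1 to 5 and 2446 to 4533 in exons 6 to 10. Few of the counts thus lay on the exons nearer the 5′ end.

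FSIP2, a scaffold of the fibrous sheath of the sperm tail, showed the same pattern at chromosome 2b on the plus strand (first exon 72897880 to 72898245, last exon 72996199 to 72996397). The last exon had 2145, 1224, 1880 and 1055 counts in Control 1 to 4, against 6096, 1199 and 2222 in Maltreated 1 to 3, and the first exon never more than 21. In CPM per kb of exon the last exon stood at 1195 ± 258 (SD, n = 4) in the Control libraries and 1007 ± 34.2 (SD, n = 3) in Maltreated libraries, and the first at 3.53 ± 5.09 and 3.36 ± 5.15. The log2 ratio was 9.62 ± 1.35 (SE; edgeR adjusted p = 0.00368). Of its 23 exons only the last 4 held more than 213 summed counts, from 7476 to 15821, and the 2 exons that make up most of the gene, of 8946 and 9439 bases, had 111 and 213.

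N4BP2L2, a gene of uncertain role, had 751 to 5777 counts on its last exon in every library and first-exon counts only in Maltreated 1 and Maltreated 3 (8 and 12). Its log2 ratio was 9.90 ± 1.03 (SE; edgeR adjusted p = 0.00629), and without Maltreated 1 its adjusted p was 0.0588. The other 7 of the 10 largest ratios were those of IQCF3, FBXL13, SUMF1, EFHB, LARP4, FAM216A and HAGH. SUMF1 activates sulfatases, HAGH is glyoxalase II, LARP4 binds poly(A) RNA, and FBXL13 and EFHB are genes of cilia and flagella. Over the 10 genes the ratio ran from 6.92 to 10.50 (edgeR adjusted p 0.000442 to 0.00629), the first exon held 0.0477 to 1.13% of a gene's exon counts and the last exon 16.4 to 46.8%. Their first exons, 142 to 983 bases, were not short, and in 6 of them the last exon had the most counts of all exons.

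In the other direction a ratio of great size was that of ANO5, which encodes an anoctamin membrane protein, on the minus strand of chromosome 11. Its first exon of 50 bases (43808706 to 43808755) had 1627, 570, 575 and 635 counts in Control 1 to 4, against 4257, 739 and 1565 in Maltreated 1 to 3. Its last exon of 3789 bases (43732620 to 43736408) had 4, 0, 1 and 1 in Control and 17, 4 and 5 in Maltreated libraries. Every library had at least 570 counts at the 5′ end and at most 17 over the whole last exon, and the log2 ratio was -14.80 ± 0.53 (SE; edgeR adjusted p = 1.49e-05). Reads were dense through exon 7 of 20, with 4660 to 25013 summed counts per exon, and fell to 45 at exon 8.

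RAD54L2, a helicase of the SNF2 family, had 1454, 979, 755 and 239 counts on a first exon of 70 bases in Control 1 to 4, against 2519, 1066 and 1690 in Maltreated 1 to 3. Its last exon of 1179 bases had counts only in Control 2, Maltreated 1 and Maltreated 3, with 9, 28 and 9. The first exon was thus the higher in each library, with a log2 ratio of -12.8 ± 1.28 (SE; edgeR adjusted p = 0.000948).

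ZSWIM6 had 49.97% of its exon counts on the first exon, 14924 in sum, and 56 counts on the last, with a log2 ratio of -11.90 ± 1.18 (SE; edgeR adjusted p = 0.000914). Other genes with ratios of this size were CDK14 (a cyclin-dependent kinase), C4orf29, RUNX1 (a transcription factor of blood formation), GRB10 (an imprinted adaptor of insulin signalling) and CSNK1G1 (a casein kinase). Over the 8 genes given the ratio ran from -14.80 to -11.90 and the edgeR adjusted p from 1.49e-05 to 0.00175. Their last exons were long, 813 to 6627 bases, and held 0.0367 to 0.771% of the gene's exon counts, while first exons of 50 to 404 bases held 11.4 to 49.97%. The exon with the most counts was the first in 4 of the 8 and among exons 1 to 4 in 7, the exception being CSNK1G1 with exon 8 of 11.

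**Figure D4:**
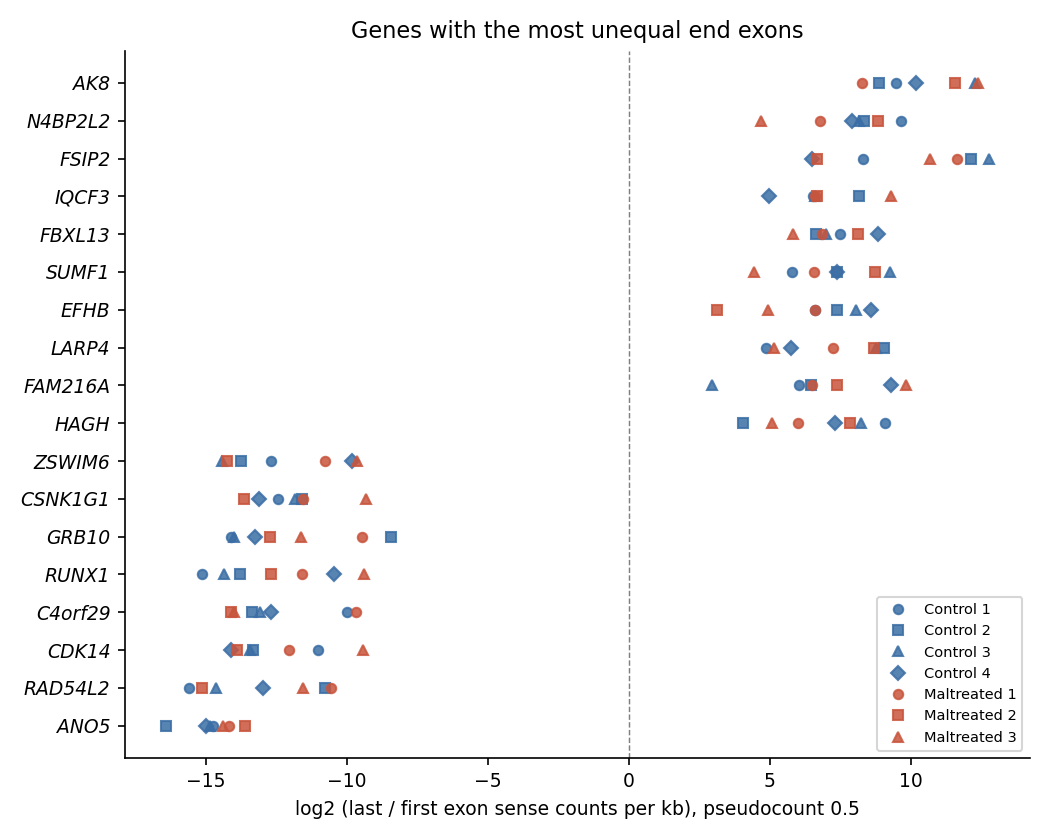
The log2 ratio of last to first exon sense counts per kb (0.5 counts added) in each of the 7 libraries for 10 genes with the largest ratios in favour of the last exon and 8 in favour of the first. Every library lies to the right of 0 for the genes from AK8 to HAGH and to the left for those from ZSWIM6 to ANO5.

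The interior exons, which took no part in the test, were compared between these classes in genes with 4 or more of them. In genes with the first exon denser, the interior exons nearer the 5′ end, up to the middle of the exon order, held a median of 67.3% of the interior counts (upper quartile 85.6, 998 genes). In genes with the last exon denser the median was 29.9% (8.79 and 51.9, 118 genes), and in the genes not called it was 54.95% (37.3 and 74.2, 6327 genes). More than 50% of the interior counts lay in these 5′ exons in 747 genes of the first class (74.8%), in 31 of the second (26.3%) and in 3653 of the third (57.7%). Neighbouring exons can share a read, so these shares are not independent of the ends.

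Some genes had no count at all on 1 end in any library. Among genes with 20 or more sense counts in at least 3 libraries, there were 476 such genes for the first exon and 180 for the last. The minimum of 15 end counts was not required for this count, so these genes need not all be among those tested. ERCC4, a DNA repair nuclease, had 3207 counts on its last exon and 0 on its first, and was at least 45.8-fold denser on the last exon against a floor of 3 counts over the 7 libraries. For CAAP1, an apoptosis gene, with 1154 counts on the last exon, this bound was 79.9-fold. In the opposite sense RSRC1, a splicing-related gene, had 3571 counts on a first exon of 171 bases and 0 on a last exon of 25 bases, at least 174-fold denser on the first. The edgeR call of RSRC1 (adjusted p = 0.0167) was lost without Maltreated 1 (0.0561) and without Maltreated 3 (0.0514). EMILIN3, an extracellular matrix gene, had 704 counts on its first exon and 0 on its other 3 exons, a bound of 1860-fold. The covered fraction of that first exon was 0.0359 in each of the 7 libraries, so its counts came from a small stretch of it, and the last exon overlaps an exon of another gene. Of the 15917 genes, 6904 were not tested and 617 had no end count in any library.

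Most of the 10 most abundant genes with 3 or more exons had a small share of their counts on the ends. RPL38, described with the ribosomal protein genes, was the one with the largest share, 24.2% of its exon counts on the first exon and 3.28% on the last. MUC16, a membrane mucin, had at most 169155 summed counts on an interior exon but 1780 on its first exon and 104 on its last. RIMS1, a regulator of vesicle release, had up to 804016 on an interior exon, 28 on its first and 217 on its last. Neither ratio passed the test (0.57 ± 0.67 and 0.67 ± 1.44, SE; edgeR adjusted p = 0.594 and 0.794). UBXN7, a ubiquitin-binding adaptor, had 1845 on the first exon and 154 on the last against 344981 on exon 5, a log2 ratio of -8.25 ± 0.52 (SE; edgeR adjusted p = 0.000146). GON4L, with -4.31 ± 0.57, also had the denser first exon, and CEP112, a centrosomal protein gene, the denser last exon at 3.74 ± 0.80 (SE; edgeR adjusted p = 0.00295 and 0.0183). The call of CEP112 was lost without Maltreated 1 (adjusted p = 0.0737), without Maltreated 3 (0.0589) and without Control 4 and Maltreated 3 (0.0806). ANKRD36 and ANKRD36B are listed with the same first exon, so their reads cannot be separated.

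NEMF, a factor of ribosome quality control (chromosome 14, minus strand, first exon 111688931 to 111689040, last exon 111617881 to 111618476), had level counts along the gene. All its 33 exons had between 9817 and 10465 summed counts, although their lengths ran from 32 to 596 bases. Its first and last exon had 1302 and 1294 counts in Control 1, 797 and 791 in Control 2, and 3296 and 3258 in Maltreated 1, near equality that held in every library. Its log2 ratio per kb of -2.44 ± 0.10 (SE; edgeR adjusted p = 2.6e-05) is therefore that of its end exon lengths, 110 and 596 bases. Equal counts above 0 on the 2 ends were found in 485 to 739 genes per library. A count need not be a read lying in the exon, because alignments that only span an exon may be included. This was not tested.

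Genes of the sperm were next described by list. Of 36 tested genes of sperm and spermatid structure 8 had the first exon denser (22.2%) and 2 the last, FSIP2 and CALR3, against 14.6% and 1.97% of all tested genes. The median log2 ratio was -1.94 against -1.41 over all 9013 genes in the edgeR fit, but -1.94 against -1.93 by DESeq2. As medians per library with 0.5 counts added, it was -1.94 to -1.04 for the list and -2.32 to -1.81 over all, so the order of the list and all genes turned with the method. CALR3, a testis chaperone, stood at 4.51 ± 0.89 (SE; edgeR adjusted p = 0.0134). CRISP2, a secretory protein of the acrosome and tail, stood at -3.82 ± 0.17, SPATA18, a mitochondrial quality control gene, at -8.86 ± 1.30, and IZUMO4, a member of the sperm IZUMO family, at -2.44 ± 0.34 (SE; edgeR adjusted p = 3.5e-05, 0.0042 and 0.00369). The protamine genes PRM1 and PRM2 have fewer than 3 exons and are not among the genes described.

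Among 35 tested genes of the axoneme and of motility, 6 had the first exon denser (17.1%) and 4 the last (11.4%), against 14.6% and 1.97% of all tested genes. The last-exon count was 2 on leaving out Control 1, Control 2, Control 3 or Maltreated 2, 1 on leaving out Maltreated 1 or Maltreated 3, and 2 with 100 bases added to each length. The 4 genes were RSPH3 and RSPH6A of the radial spoke, SPAG16 of the central apparatus and TEKT5, a tektin, at 6.28 ± 0.64, 3.70 ± 0.98, 4.63 ± 0.84 and 3.13 ± 0.85 (SE; edgeR adjusted p 0.0011 to 0.0448). With the first exon denser were the dynein genes DNAH12 (-7.05 ± 1.25, SE), DNAL1 (-12.53 ± 1.35) and DNALI1, HYDIN of the central apparatus (-8.33 ± 1.34), and 2 genes of the CatSper calcium channel of the sperm tail. CATSPER2 had 837 to 2800 counts per library on its first exon of 146 bases and 66 to 293 on its last exon of 162 bases, higher on the first in 7 of 7 libraries (-2.94 ± 0.28, SE; edgeR adjusted p = 0.000773). CATSPERD had nearly level counts, 1732 on the first and 1921 on the last, and its ratio of -1.28 ± 0.19 (SE; edgeR adjusted p = 0.00447) arises with exon lengths of 134 and 363 bases.

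Cytosolic ribosomal protein genes had more calls than any other list. Of 78 tested members 40 had the first exon denser (51.3%, against 14.6% of all tested genes) and 0 the last, with a median log2 ratio of -2.91 and library medians from -3.44 to -2.05. RPL38, a protein of the large subunit (chromosome 17, plus strand, first exon 67513164 to 67513252, last exon 67518537 to 67518666), had 12786, 10030, 9719 and 7578 counts on its first exon in Control 1 to 4, against 33823, 7742 and 23474 in Maltreated 1 to 3. Its last exon had 1331, 2188, 1749 and 430 in Control and 4032, 1562 and 2987 in Maltreated libraries. The first exon was the higher in each library although the last was longer (89 and 130 bases), and the log2 ratio was -3.44 ± 0.25 (SE; edgeR adjusted p = 0.000302). RPL35 stood at -3.00 ± 0.26 (SE; adjusted p = 0.000545), and its last exon overlaps an exon of another gene.

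The share of ribosomal protein genes with the denser first exon depended on the setting. With 100 bases added to each exon's length it was 31 of 78 (39.7%, against 10.9% of all genes), and 1 had the last exon denser. With length-matched ends it was 3 of 15 (against 5.57% of all such genes), and without Control 4 and Maltreated 3 27 of 72 (37.5%, against 10.4%). Leaving out Maltreated 3 alone left 23, and Maltreated 1 alone 25. Ribosomal protein genes have many processed copies in primate genomes, so reads may be shared with copies outside the listed gene and the values of single members are uncertain.

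Elsewhere the calls were few. Nuclear genes of oxidative phosphorylation had 8 of 60 with the first exon denser (13.3%, against 14.6% of all tested genes) and 1 with the last, COX7A1 (6.40 ± 1.32, SE; edgeR adjusted p = 0.0159). The 8 became 2 without Maltreated 1, 3 without Maltreated 3, and 5 without Control 1, Control 2 or Control 3, and no call on the last exon was left without Maltreated 1 or Maltreated 3. COX6B2, the testis form of a cytochrome oxidase subunit, had 9217 summed counts on its first exon and 56 on its last (-9.52 ± 0.65, SE; edgeR adjusted p = 0.000221). Earlier germ cell genes had 3 of 28 (10.7%), and 1 on leaving out any library but Control 4 (6) or Maltreated 2 (2). The 3 were PIWIL1 and TDRD6 of the piRNA pathway and SYCP1 of the synaptonemal complex, with SYCP1 at -11.08 ± 0.85 (SE; edgeR adjusted p = 0.00129). Genes of chromatin and DNA methylation had 2 of 33 (6.06%), and 1 to 3 with 1 library left out: KDM5A, a histone demethylase, at -7.01 ± 0.98 and EZH2, a histone methyltransferase, at -5.13 ± 1.01 (SE; edgeR adjusted p = 0.00358 and 0.0255). The call of EZH2 was lost on leaving out any 1 of Control 1, Control 2, Control 3, Maltreated 1 or Maltreated 3 (adjusted p 0.0621 to 0.145). By edgeR no gene was called in either direction among 12 leukocyte genes, 11 of the glucocorticoid axis, 6 of testis somatic cells and 4 of epithelium and accessory glands. By DESeq2 the first exon was denser in 2, 2, 2 and 1 of them, against 26.3% of all tested genes. The last exon was denser in 1 gene of the glucocorticoid axis, against 3.83% of all. The median ratio of the glucocorticoid list was 0.33 in the edgeR fit but -1.45 by DESeq2 and -2.93 to -0.06 in single libraries, so no direction can be given.

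The 2 most abundant tested genes of each list included several that did not pass in the main edgeR fit. ODF2 of the outer dense fibres and CABYR of the fibrous sheath had ratios of -2.94 and -3.40 (edgeR adjusted p = 0.122 and 0.0648). TDRD9 and RNF17 of the piRNA pathway had ratios of 4.91 and -1.75 (adjusted p = 0.0625 and 0.231), and SUZ12, a partner of EZH2, had 1.48 (adjusted p = 0.296). Of genes of other cells, CD68, a macrophage gene, had -5.64 (adjusted p = 0.0577), with 2050 of its 2143 first-exon counts in Maltreated 3. The ratios of PTGES3 and STIP1, co-chaperones of the glucocorticoid receptor, were -0.66 and 1.52 (adjusted p = 0.746 and 0.238). By DESeq2's Wald test ODF2, CABYR, TDRD9 and CD68 did pass (adjusted p = 0.0498, 0.00245, 0.0116 and 4.21e-05). RNF17, SUZ12, PTGES3 and STIP1 passed in no setting tried.

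**Figure D5:**
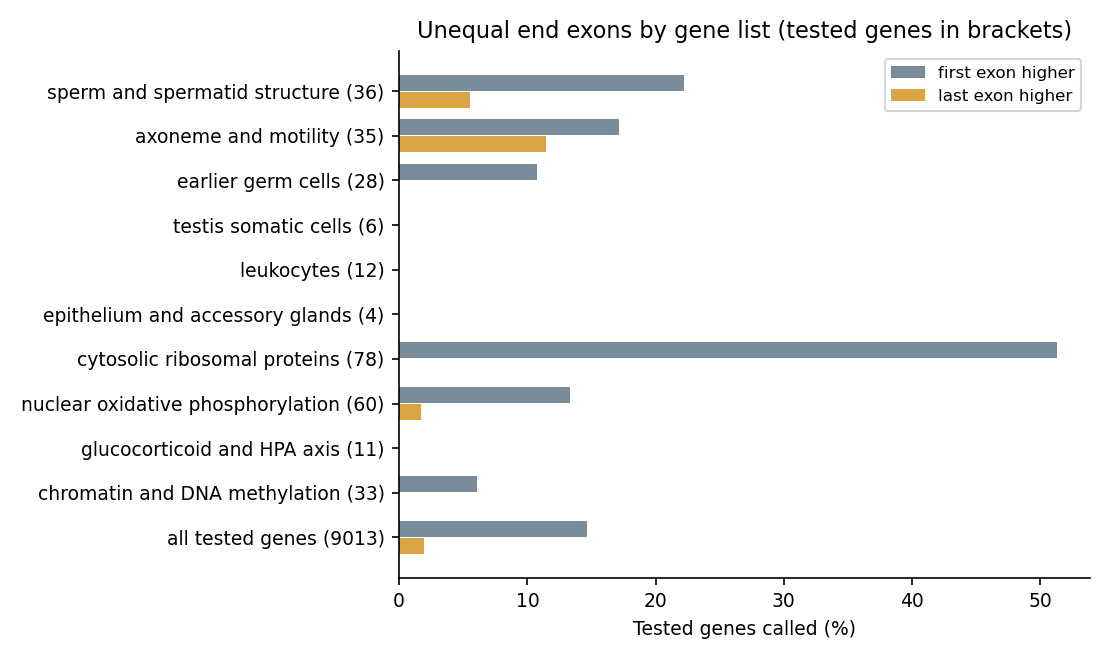
Percent of tested genes called denser on the first exon and on the last exon (edgeR, adjusted p under 0.05) in 10 gene lists and over all 9013 tested genes, whose number stands in brackets. Ribosomal protein genes reach 51.3% for the first exon against 14.6% over all. The last-exon bar of the axoneme list stands for 4 genes, of which 1 to 4 were called when 1 library was left out.

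The design's own comparison is whether the balance of the ends differed between Maltreated and Control sperm. For the median per-kb ratio it did not exceed the spread: the group means were -2.08 ± 0.09 (SD, n = 4) in the Control libraries and -2.09 ± 0.30 (SD, n = 3) in Maltreated libraries, a difference of -0.015 (two-sided exact permutation test over 35 splits, p = 0.943, adjusted p = 1.0). The smallest p this design allows is 0.0286. The ratios of first and last exon to the interior were 0.53 and 0.56 higher in Maltreated libraries (exact permutation p = 0.343 for each, adjusted p = 0.857), with Maltreated 2 the lowest of all 7 libraries and Maltreated 3 the highest. The mean difference in covered fraction was -0.049 ± 0.011 (SD, n = 4) in the Control libraries and -0.087 ± 0.055 (SD, n = 3) in Maltreated libraries (exact permutation p = 0.114). Maltreated 3 stood at -0.150, and Maltreated 1 and 2 at -0.063 and -0.049.

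In length-matched genes the median ratio was -0.14 ± 0.06 (SD, n = 4) in the Control libraries and -0.32 ± 0.16 (SD, n = 3) in Maltreated libraries, a difference of -0.19 (exact permutation p = 0.0571). With 20 or more end counts required as well, this difference was 0.033 (exact permutation p = 0.971).

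No single gene passed in this comparison. By edgeR the ratio differed between groups in 0 of 9013 genes (0%; smallest adjusted p = 1), with 140 genes at an unadjusted p under 0.05, 51 higher and 89 lower in Maltreated sperm. DESeq2's Wald test called 1 gene, ZNF451 (adjusted p = 0.0183), whose last exon had counts in Control 4 alone. The groups did not overlap in 185 genes with a higher ratio in Maltreated libraries (2.05%) and in 171 with a lower one (1.9%). The biological coefficient of variation of the end counts was 0.963. It is the variation left after the library block and the last-exon terms, and does not measure the spread of a gene's level between libraries.

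The genes with the smallest unadjusted p are given as values. SGSM2, a regulator of Rab GTPases (chromosome 17, plus strand, first exon 2255284 to 2255513, last exon 2297247 to 2298859), had 407, 728, 368 and 484 counts on its first exon in Control 1 to 4, against 1022, 275 and 362 in Maltreated 1 to 3. Its last exon had 16, 3, 1 and 2 counts in Control and 158, 46 and 53 in Maltreated libraries. In log2 terms the ratio lay between -10.75 and -7.44 in Control and between -5.57 and -5.38 in Maltreated libraries with no overlap, a difference of 4.41 ± 0.93 (SE; edgeR adjusted p = 1.0). EPB41L3, a membrane skeleton protein gene, had 1 to 5 last-exon counts in Control and 19 to 35 in Maltreated libraries, a difference of 2.71 ± 0.82 (SE; edgeR adjusted p = 1.0).

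ACE, whose testis form is a peptidase of sperm, had 1, 1, 3 and 1 first-exon counts in Control and 0 in all 3 Maltreated libraries, against 42 to 84 and 22 to 261 on its last exon. Among genes with a lower ratio in Maltreated sperm, MVB12B, a subunit of the ESCRT-I sorting complex, had 0 first-exon counts in 4 of 4 Control libraries and 18, 1 and 4 in Maltreated 1 to 3. GSG1, a germ cell gene, had 1, 0, 0 and 0 in Control against 50, 0 and 10. CEP128, a centriolar protein gene, had 2085 to 11165 counts on its last exon and first-exon counts only in Maltreated 1 and Maltreated 3, with 6 and 2. In ACE, MVB12B, GSG1 and CEP128 1 end of a group was thus at or near 0, so the difference rests on a few reads. Last-exon counts in Control libraries were also few for SGSM2 (1 to 16) and EPB41L3 (1 to 5). The other 14 of the 20 genes were NTN5, TACC3, EFCAB3, S100PBP, PI4K2A, LMF1 and ZNF140, with a higher ratio in Maltreated libraries, and PARP1, CCNDBP1, TRAPPC12, DDIT4, STIP1, EIF5 and LEPRE1, with a lower one. Over the 20, unadjusted edgeR p ran from 0.00173 to 0.0185 and the adjusted p was 1.0 throughout.

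By list, 0 genes were called between the groups in any of the 10 lists. Of ribosomal protein genes 25 had a higher and 53 a lower ratio in Maltreated libraries, with a median difference of -0.33, and of all tested genes 3989 and 5024, with a median of -0.28. Of 12 leukocyte genes 2 had a higher and 10 a lower ratio, but without Control 4 and Maltreated 3 only 2 of the list were tested. CD74, an antigen presentation gene, had first-exon counts in Control 4 and Maltreated 3 alone, 155 and 241, beside 577 and 717 on its last exon.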

How the data were processed

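Sperm total RNA was sequenced in 7 libraries, grouped by the treatment label as Control (n = 4) or Maltreated (n = 3). For each library and read strand the authors deposited counts of reads per annotated exon, with the bases covered, the exon length and the covered fraction. These files have the column layout of bedtools coverage. They do not say whether an alignment that spans an exon, with no base in it, is counted on that exon. STAR, featureCounts and bedtools are named in the submitters' processing notes without versions or roles, and the build and annotation are not given in the sources used here. A deposited table of the whole series was not used.

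Exon entries that repeated an exon of the same gene (43070 of 233690, with the same counts) were dropped, 2 genes listed on both strands and 2 whose first and last exons overlap were left out, and the longest was taken where several exons shared the outer edge (285 genes). The end exons of 1180 genes overlap an exon of another gene. Sense means that read strand and gene strand agree. Symbols were matched to a RefSeq table of assembly T2T-MMU8v2.0 for names only, 14131 as current symbols and 344 as synonyms. No sequence is printed.

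Each library gave 1 median over genes with 20 or more sense counts, on the scale of log2 with a pseudocount of 0.5. These medians were compared by exact sign-flip and permutation tests (Python 3.11.15, scipy 1.17.1). Per gene, counts of both ends entered edgeR 4.0.16 (R 4.3.3) in 14 columns with the library as a block, a last-exon term and its interaction with group, with Benjamini-Hochberg adjustment over 9013 genes at 0.05. The steps were tested on simulated data. DESeq2 1.42.0 was an alternative, beside other count minima, pseudocounts, scalings, length rules and left-out libraries.

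The text names the 10 genes with the largest ratio in each direction among those passing, with the same direction in 7 libraries and 20 or more counts on each end, 2 of which are not reported here. It also names the 10 with the smallest unadjusted p for the group difference in each direction, members among the 10 most abundant genes, and members of the gene lists, where genes other than the 2 most abundant were picked from those that passed after their values were seen. The gene regions and lists were chosen with earlier results of these data known. Reads carry no molecular identifiers, so counts are not independent molecules.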

Additional observations from a re-analysis of the deposited data

Results flagged for a closer look

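In 72 sets of 4 Control values, 1 library was compared with the other 3. In 8 sets its gap to the nearest value was a larger part of the range than Dixon's 95% limit allows. Chance gives about 1 such set in 20. The antisense median log2 ratio of last to first exon was -1.80 in Control 4, against -2.20 to -2.15 in the other Control libraries. For ANO5, GRB10 and MSMB it was Control 2 that lay apart, with log2 ratios of -16.40, -8.44 and -7.41. Control 1 lay apart for SGSM2 at -7.44, for CEP128 at 8.87 and for WT1 at 0.019. Control 4 lay apart for LMF1 at -0.97. ANO5 had 0 counts on the last exon in Control 2, so its value there was set by the added 0.5 counts. LMF1 had 0 counts on both ends in Control 4, so its value there was set by those added counts and exon length. GRB10 had 0 last-exon counts in Control 1, Control 3 and Control 4. CEP128 had 0 first-exon counts in all 4 Control libraries. The gaps of GRB10 and CEP128 therefore also rest on the added counts.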

How the results depend on the processing

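Averaged over libraries, the median per-kb ratio of last to first exon stayed below 0 with every count minimum, pseudocount, length rule and left-out library. This average turned only for counts not divided by length, to 0.069 (exact permutation p = 1.0). Without Control 4 and Maltreated 3 the last-to-first, first-to-interior and last-to-interior values were -2.07, -2.91 and -5.02, at an exact p of 0.0625, the smallest that 5 libraries allow. For the values against the interior this p decides nothing, because the choice of genes favoured the interior. The covered fraction differed by -0.065 as a mean over genes. The group difference in the ratio, -0.015, was 0.000457 with a minimum of 100 counts, 0.018 with a pseudocount of 1, 0.162 for counts not divided by length, 0.033 with matched lengths and 20 end counts, and 0.126 without Control 4 and Maltreated 3. Leaving out 1 library at a time gave -0.186 to 0.085, above 0 without Control 4, Maltreated 2 or Maltreated 3. With the replicate number as a block it was 0.026 (exact p = 1.0, the smallest possible being 0.25) and 0 genes were called. Same-numbered libraries correlated at 0.166, 0.089 and -0.166 over 727 genes, and pairs with different numbers at -0.188 to 0.157. These few values cannot tell whether the numbers pair the libraries. Genes with unequal ends numbered 2715 by DESeq2 (345 last, 2370 first, 1 between groups), 78 with matched lengths (28 and 50) and 809 without Control 4 and Maltreated 3 (67 and 742). Without a count filter 101 were higher on the last exon. With 1 library left out they numbered 601 to 1637 (last 50 to 195, first 551 to 1442), and the cause was not tested. Among single genes none past the threshold turned. TGM4 was -0.000296 by DESeq2 and -0.299 to 2.27 with 1 library left out, MUC16 -0.031 with 100 bases added, and NDUFA10 0.121 with 100 bases added, 0.935 without Control 4 and Maltreated 3 and -1.44 to 1.23 with 1 left out. RIMS1 ranged from -0.151 to 3.96 and PTGES3 from -1.36 to 0.088 with 1 left out. Depth limits the ends: 3.74 to 35.8% of genes per library had no read on either end.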
